A study of Mus musculus with 22 samples.

Results

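Ras GTPases and the proteins that switch them off were followed in mouse embryonic fibroblasts (MEFs) with a mutant oncogene, loss of the transcription factor Wt1, or both. The members were all probe sets, groups of probes against a transcript, that the platform annotation gave to exactly 1 of 9 genes: the Ras genes Hras, Nras, Mras, Rras and Rras2, and the GTPase-activating protein (GAP) genes Nf1, Rasa1, Rasa2 and Rasal2. They numbered 19 of 34945 probe sets with 1 gene, 8 for Ras genes and 11 for GAP genes. Hras had no such probe set and was not analysed here, which left 8 genes.

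RNA was taken 7 days after adenoviral infection and hybridised to Affymetrix mouse GeneChip arrays, 22 in all. The 5 control arrays came from MEFs labelled wild type that received a nonspecific virus with GFP, and the sources used here do not say whether they carried unrecombined alleles. The 5 Wt1-null arrays came from Wt1f/f MEFs given Cre virus. The 5 oncogene arrays came from MEFs with a Cre-activated mutant oncogene that is not reported here by name, and the 7 double arrays from MEFs in which Cre activated it and deleted Wt1. Control and Cre groups therefore differed in virus as well as genotype, and those effects cannot be told apart. Strain, embryo age and the number of separate cultures were also not stated. The p-values therefore reflect only how these arrays vary, which may be partly technical.

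Ras proteins are membrane-bound switches that are active with GTP and inactive with GDP. Exchange factors load GTP, and GAPs speed the hydrolysis of GTP by Ras, which ends the signal to the RAF kinases, phosphoinositide 3-kinase and other effectors. In fibroblasts this switch relays growth factor and adhesion signals. The arrays measured transcript levels, not protein or the share of Ras bound to GTP. All levels are the authors' RMA values on the log2 scale, where a difference of 1 is a doubling, and levels of different probe sets are not compared because probes differ in brightness.

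Fibroblast genes were at high levels. The mean of 7 fibroblast genes, among them Col1a1, Col3a1 and Vim, lay between 13.01 and 13.93 in the 22 arrays. Of the markers of other cell types, 1 of 4 for epithelium (Cdh1), 1 of 4 for endothelium (Pecam1), 1 of 4 for leukocytes (Ptprc), 1 of 3 for neurons (Snap25) and 0 of 4 for muscle stayed within the background range in all arrays. The others read above it in some or all arrays, among them Epcam (mean 8.40), Kdr (7.17), Csf1r (7.30), Des (8.10), Tubb3 (7.51) and Krt18, which reached 11.08. The background range was 3.65 to 5.06, the level of 3 Y-linked genes in the 9 arrays high in Xist, the RNA that silences an X chromosome in female cells. Among the double arrays 5 of 7 were high in Xist, against 2 of 5 in the control, 2 of 5 in the Wt1-null and 0 of 5 in the oncogene group. The probe set of Wt1 itself read 4.16 to 4.77 over all arrays, within the background range also in control MEFs, so it does not check the deletion (Wt1-null against control 0.09, adjusted p = 0.738). Some arrays stood apart. Wt1-null replicate 2 and double replicate 2 were nearly the same array, with an SD of their difference over all probe sets of 0.152 against 0.285 for the next pair from different groups. For the 19 members their median difference was 0.039. Wt1-null replicates 3 and 4 were also close, with an SD of 0.161. The arrays least correlated with all others were oncogene replicate 4 (mean correlation 0.963) and double replicate 4 (0.940). The arrays fall into 3 sets of neighbouring accession numbers; all double arrays were in one, with 4 control and 4 oncogene arrays and no Wt1-null array. Values without 1 or more of these arrays are given for Rasal2, Nras, Rasa1 and Rasa2.

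Rasal2 was the only member whose level differed between groups at an adjusted p below 0.05 when all 22 arrays were compared (limma, Benjamini-Hochberg adjustment over 34945 probe sets). Rasal2 encodes a Ras GAP of the SynGAP family. Its brightest probe set, 1436910_at, was 1.82-fold lower in oncogene than in control MEFs and 2.24-fold lower in double than in control MEFs. Across the 4 groups the moderated F test gave an adjusted p = 0.0034, and 2.4% of all probe sets passed that test, against 1 of 11 GAP and 0 of 8 Ras probe sets.

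The Rasal2 probe set 1436910_at read 10.89, 11.02, 10.48, 10.45 and 9.94 in control replicates 1 to 5. It read 9.92, 9.28, 9.85, 9.62 and 9.80 in oncogene replicates 1, 3, 4, 5 and 6. Every oncogene array lay below every control array, although control replicate 5 was only just above oncogene replicate 1. In Wt1-null replicates 1 to 5 it read 10.79, 9.92, 10.57, 10.53 and 10.31, and the double arrays had a lowest value of 8.97, a median of 9.40 and a highest value of 9.85. All double arrays were below all control and all Wt1-null arrays. The highest double value was that of replicate 2 and the lowest Wt1-null value was also that of replicate 2, the 2 near-identical arrays.

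**Figure D1:**
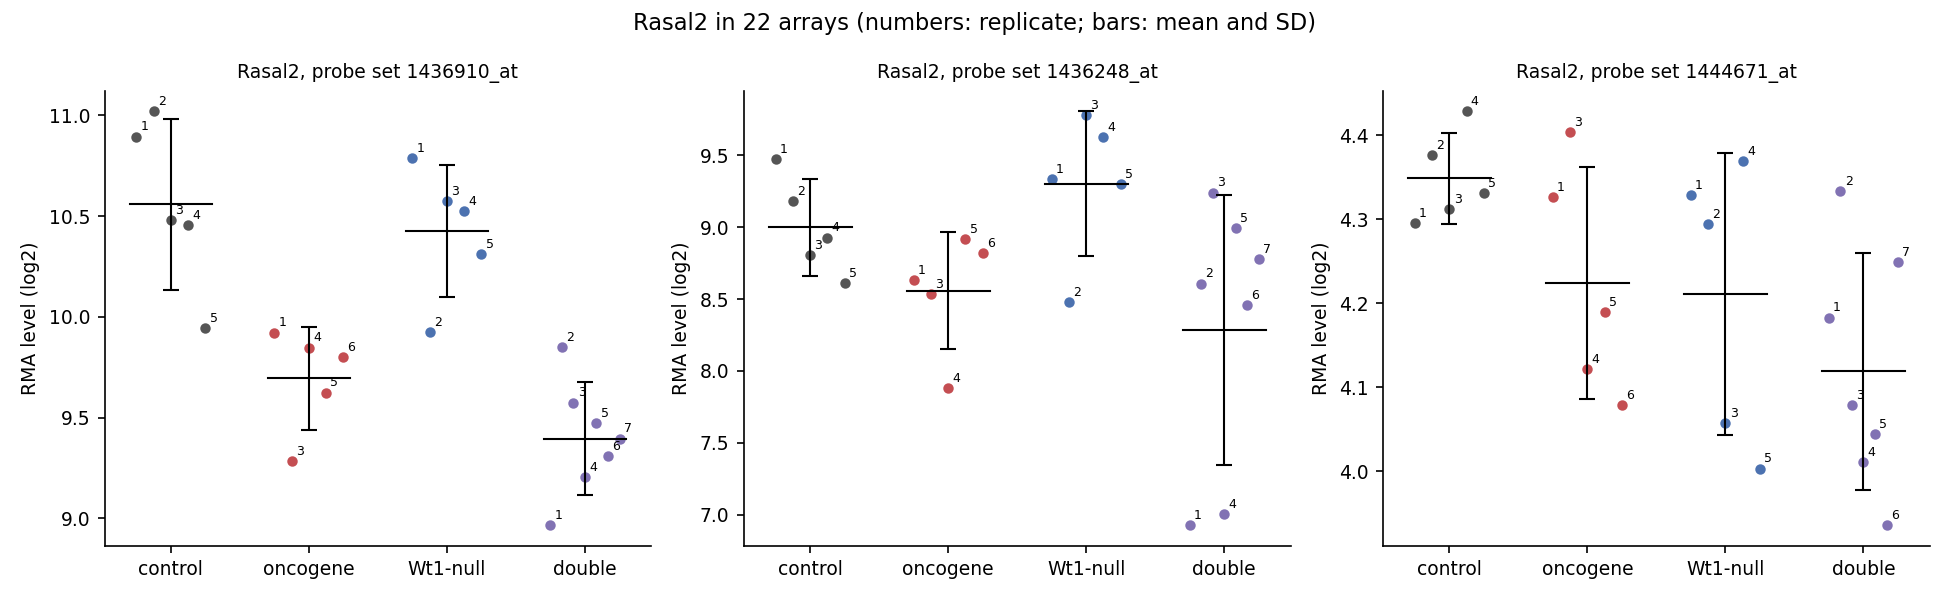
RMA level (log2) of the 3 Rasal2 probe sets in each array by group, with the replicate number beside each point and bars for the mean and SD. In probe set 1436910_at all oncogene and double arrays lie below all control arrays, and probe set 1444671_at stays between 3.94 and 4.43, within the background range.

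Between oncogene and control MEFs, Rasal2 changed by -0.86 ± 0.20 (SE; 95% interval -1.28 to -0.45; adjusted p = 0.030 with limma). It was 1 of 11 GAP probe sets called, and 1.51% of all probe sets were called (0.63% lower). Non-overlapping arrays were found for 5.45% of all probe sets and for 1 of the 19 members, this Rasal2 probe set. The call was lost without control replicate 1, 2, 3 or 4 (adjusted p = 0.064, 0.101, 0.0714 and 0.0634) and without oncogene replicate 3, 5 or 6 (0.0891, 0.0764 and 0.0551). Among the 8 arrays of these groups that shared an accession set it was -0.84 (adjusted p = 0.0762; 1.33% of all probe sets called there).

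Rasal2 also fell in double against control MEFs, and no single array decided the call. It changed by -1.16 ± 0.18 (SE; 95% interval -1.54 to -0.78; adjusted p = 0.00148 with limma). In this comparison 5.18% of all probe sets were called (2.36% lower), and the arrays did not overlap for 3.94%. The call held without each of the 22 arrays in turn, with differences from -1.32 to -1.05, and among the 4 control and 7 double arrays of one accession set (-1.08, adjusted p = 0.00852; 3.52% of all probe sets called there). With Xist as a covariate the difference was -1.09 (adjusted p = 0.00378).

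No change of Rasal2 was called in Wt1-null MEFs. The difference from control was -0.13 (95% interval -0.55 to 0.28; adjusted p = 0.825), where 0.0601% of all probe sets were called, and -0.01 with Wt1-null replicate 2 and double replicate 2 left out. Against Wt1-null MEFs, both groups with the active oncogene had lower means, and these comparisons are free of the change of virus. The double group differed by -1.03 ± 0.18 (SE; 95% interval -1.41 to -0.65), with an adjusted p = 0.0544 that narrowly missed the threshold. Only 0.00572% of all probe sets passed there, Rasal2 ranked 10 by p, and the arrays did not overlap (as for 0.861% of all probe sets). With 1 probe set per gene the adjusted p was 0.0394, and 0.0824% of genes were called.

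Without Wt1-null replicate 2 the same difference was -1.15 (95% interval -1.54 to -0.77; adjusted p = 0.00167 with limma), in a comparison where 4.81% of all probe sets were then called. With double replicate 2 also left out it was -1.23 (adjusted p = 0.00157; 3.43% called). Oncogene MEFs differed from Wt1-null MEFs by -0.73 ± 0.20 (SE; adjusted p = 0.289; 0.0114% of all probe sets called, 1.33% with non-overlapping arrays), and by -0.86 (adjusted p = 0.0428; 0.916% called) without Wt1-null replicate 2. The double and Wt1-null arrays shared no set of accessions, so their direct contrast cannot tell group from set. Of the oncogene arrays only replicate 1 shared a set with Wt1-null arrays. With the set as a fixed block the double against Wt1-null difference was -0.67 (adjusted p = 0.792 with limma). The oncogene against Wt1-null difference was then -0.43 (adjusted p = 0.878). That fit links the set of the double arrays to the others only through control replicate 1 and oncogene replicate 1. In the set that held both oncogene and Wt1-null arrays, oncogene replicate 1 read 9.92, and Wt1-null replicates 1 and 2 read 10.79 and 9.92.

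Ordered by level, Rasal2 averaged 9.40 ± 0.28 in double (SD, n = 7) and 9.69 ± 0.26 in oncogene MEFs (SD, n = 5). Above them came Wt1-null MEFs at 10.43 ± 0.33 and control MEFs at 10.56 ± 0.42 (SD, n = 5 each). The neighbours double and oncogene differed by -0.30 (95% interval -0.68 to 0.08; adjusted p = 1), in a comparison where 0% of probe sets were called by limma and 1103 had an unadjusted p below 0.05. For Rasal2 the interaction (double minus Wt1-null, less oncogene minus control) was -0.17 (95% interval -0.73 to 0.40, adjusted p = 0.868 with limma). In that test 0.0114% of all probe sets passed. The first difference is between Cre groups, whereas the second also changes the virus. The interaction therefore does not isolate how Wt1 loss alters the oncogene effect.

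The other Rasal2 probe sets gave less. Probe set 1436248_at read 9.47, 9.18, 8.81, 8.93 and 8.61 in control replicates 1 to 5 and 8.63, 8.54, 7.88, 8.92 and 8.82 in oncogene replicates 1, 3, 4, 5 and 6. It had a lowest value of 6.93, a median of 8.61 and a highest value of 9.24 in double arrays. Groups overlapped, and the spread in double arrays came from replicates 1 and 4, at 6.93 and 7.00. Its differences were -0.44 in oncogene and -0.71 in double against control, and -1.02 in double against Wt1-null (adjusted p = 0.645, 0.275 and 0.199), the same sign as in 1436910_at. Wt1-null against control had the opposite sign, 0.30 (adjusted p = 0.789), with neither probe set called. With the probe sets of a gene averaged, Rasal2 changed by -0.48 in oncogene (adjusted p = 0.208) and by -0.70 in double MEFs (adjusted p = 0.0168) against control. Over the 22 arrays the levels of 1436910_at and 1436248_at had a Pearson correlation of 0.699, given as a description since both were read on the same arrays.

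**Figure D2:**
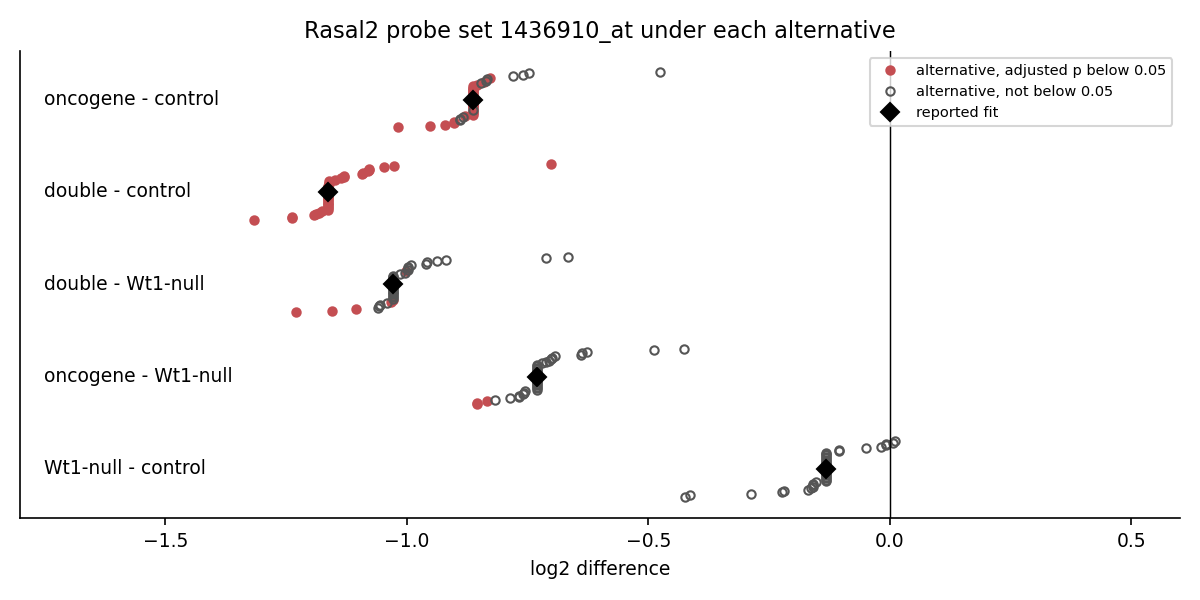
Log2 difference of Rasal2 probe set 1436910_at in 5 comparisons under the reported fit (diamond) and under each alternative (circles, filled where the adjusted p was below 0.05). Double against control is below 0 and filled throughout, whereas double against Wt1-null is filled in 7 of 39 alternatives.

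Markers of other cell types were compared beside Rasal2. Of 4 endothelial markers 2 were above and 2 below control in double MEFs, and 1 was called (Tek, 1.29, adjusted p = 0.0483 with limma). Of 4 leukocyte markers 2 were above and 2 below, and 1 was called (Cd68, 0.80, adjusted p = 0.034). Over the brightest probe sets of all genes 5.55% were called there. Of 7 fibroblast genes 6 were above and 1 below control in oncogene MEFs, with a median difference of 0.04. In double MEFs 4 were above and 3 below, with a median of 0.01. Among them only Pdgfra was called, higher by 1.97 in oncogene and by 1.78 in double MEFs (adjusted p = 0.0275 and 0.0155 with limma). The mean of 4 proliferation genes lay between 10.40 and 11.19 in control, 9.85 and 11.76 in oncogene, 9.68 and 11.73 in Wt1-null and 9.04 and 11.11 in double arrays, with 0 of 4 called in any comparison (limma). All 4 had lower means in double MEFs, with a median difference of -0.86 from control, -0.99 from oncogene and -0.95 from Wt1-null MEFs (smallest adjusted p = 0.207, 1 and 0.262). The mean of 4 endothelial genes lay between 5.49 and 5.82 in control, 5.72 and 6.32 in oncogene, 5.56 and 6.09 in Wt1-null and 5.75 and 6.26 in double arrays. The mean of 4 leukocyte genes lay between 5.57 and 6.01, 5.64 and 6.19, 5.73 and 5.86, and 5.84 and 6.27 in the same order. The mean of 4 epithelial genes, of which 0 were called, lay between 6.02 and 6.40, 6.07 and 6.99, 6.11 and 6.73, and 6.09 and 7.72. All 4, with Cdh1 at background level, had higher means in double MEFs. Their median difference was 0.24 from control, 0.26 from oncogene and 0.25 from Wt1-null MEFs. The part of any of these markers in the Rasal2 result was not tested. In such bulk RNA fewer cells of a type and less RNA per cell cannot be told apart.

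The promoter of Rasal2 is shown because it was the member that changed, and that of Rasa1 because its 3 probe sets varied together within groups. Both are from the RefSeq table of mouse build GRCm38.p6 and cover the 250 bases before the annotated start, at chr1:157412596-157412845 (minus strand) for Rasal2 and chr13:85289487-85289736 (minus strand) for Rasa1. Capitals mark CCGGAA, the core bound by ETS factors, on either strand.
Rasal2: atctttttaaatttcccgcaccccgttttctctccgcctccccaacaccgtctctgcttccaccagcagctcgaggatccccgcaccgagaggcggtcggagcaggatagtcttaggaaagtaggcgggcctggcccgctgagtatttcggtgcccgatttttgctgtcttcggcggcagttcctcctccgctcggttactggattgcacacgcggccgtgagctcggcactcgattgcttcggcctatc
Rasa1: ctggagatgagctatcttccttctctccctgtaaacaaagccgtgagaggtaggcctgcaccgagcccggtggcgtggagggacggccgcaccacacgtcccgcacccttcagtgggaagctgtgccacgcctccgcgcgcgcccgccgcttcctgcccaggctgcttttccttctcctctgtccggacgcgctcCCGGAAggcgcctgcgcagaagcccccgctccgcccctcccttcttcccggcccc
The windows were searched on both strands for CCGGAA, for the AP-1 motif TGANTCA, for the WT1 motif GCGTGGGAG and for the GC box GGGCGG. ETS and AP-1 factors are known outputs of Ras signalling. Rasal2 held none of them. Rasa1 held CCGGAA 55 bases before the start and 1 GC box. Of all 32851 promoter windows of this length, 12.0% held CCGGAA, 6.75% TGANTCA, 0.405% GCGTGGGAG and 32.7% GGGCGG. Among the 9 member genes CCGGAA was found in 3 and TGANTCA and GCGTGGGAG in 0, and GGGCGG in 6. A match or its absence describes these letters in these windows and nothing about binding.

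None of the 8 Ras GTPase probe sets was called in any of the 6 comparisons of groups, in the interaction or in the F test (limma). At an unadjusted p below 0.05 there were 2 for the oncogene group, 1 for the Wt1-null group and 2 for the double group when each was set against control, where 14.7%, 11.6% and 19.7% of all probe sets had such a p. The double group gave 0 against oncogene MEFs and 1 against Wt1-null MEFs, and the latter gave 1 against oncogene MEFs, where the shares of all probe sets were 3.16%, 14.4% and 7.75%. Between oncogene and control MEFs 5 of 8 were higher, with a median difference of 0.26, whereas 15473 of all 34945 probe sets were higher, with a median of -0.027. The 8 probe sets belong to 4 genes and are not independent of each other. The half-widths of their 95% intervals ran from 0.33 to 0.66 in that comparison, without adjustment for the number of probe sets. A call needed more than that. Rras2 1448689_at (0.62) and Nras 1422687_at (0.53) had intervals above 0 but were not called (adjusted p = 0.315 and 0.326 with limma).

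**Figure D3:**
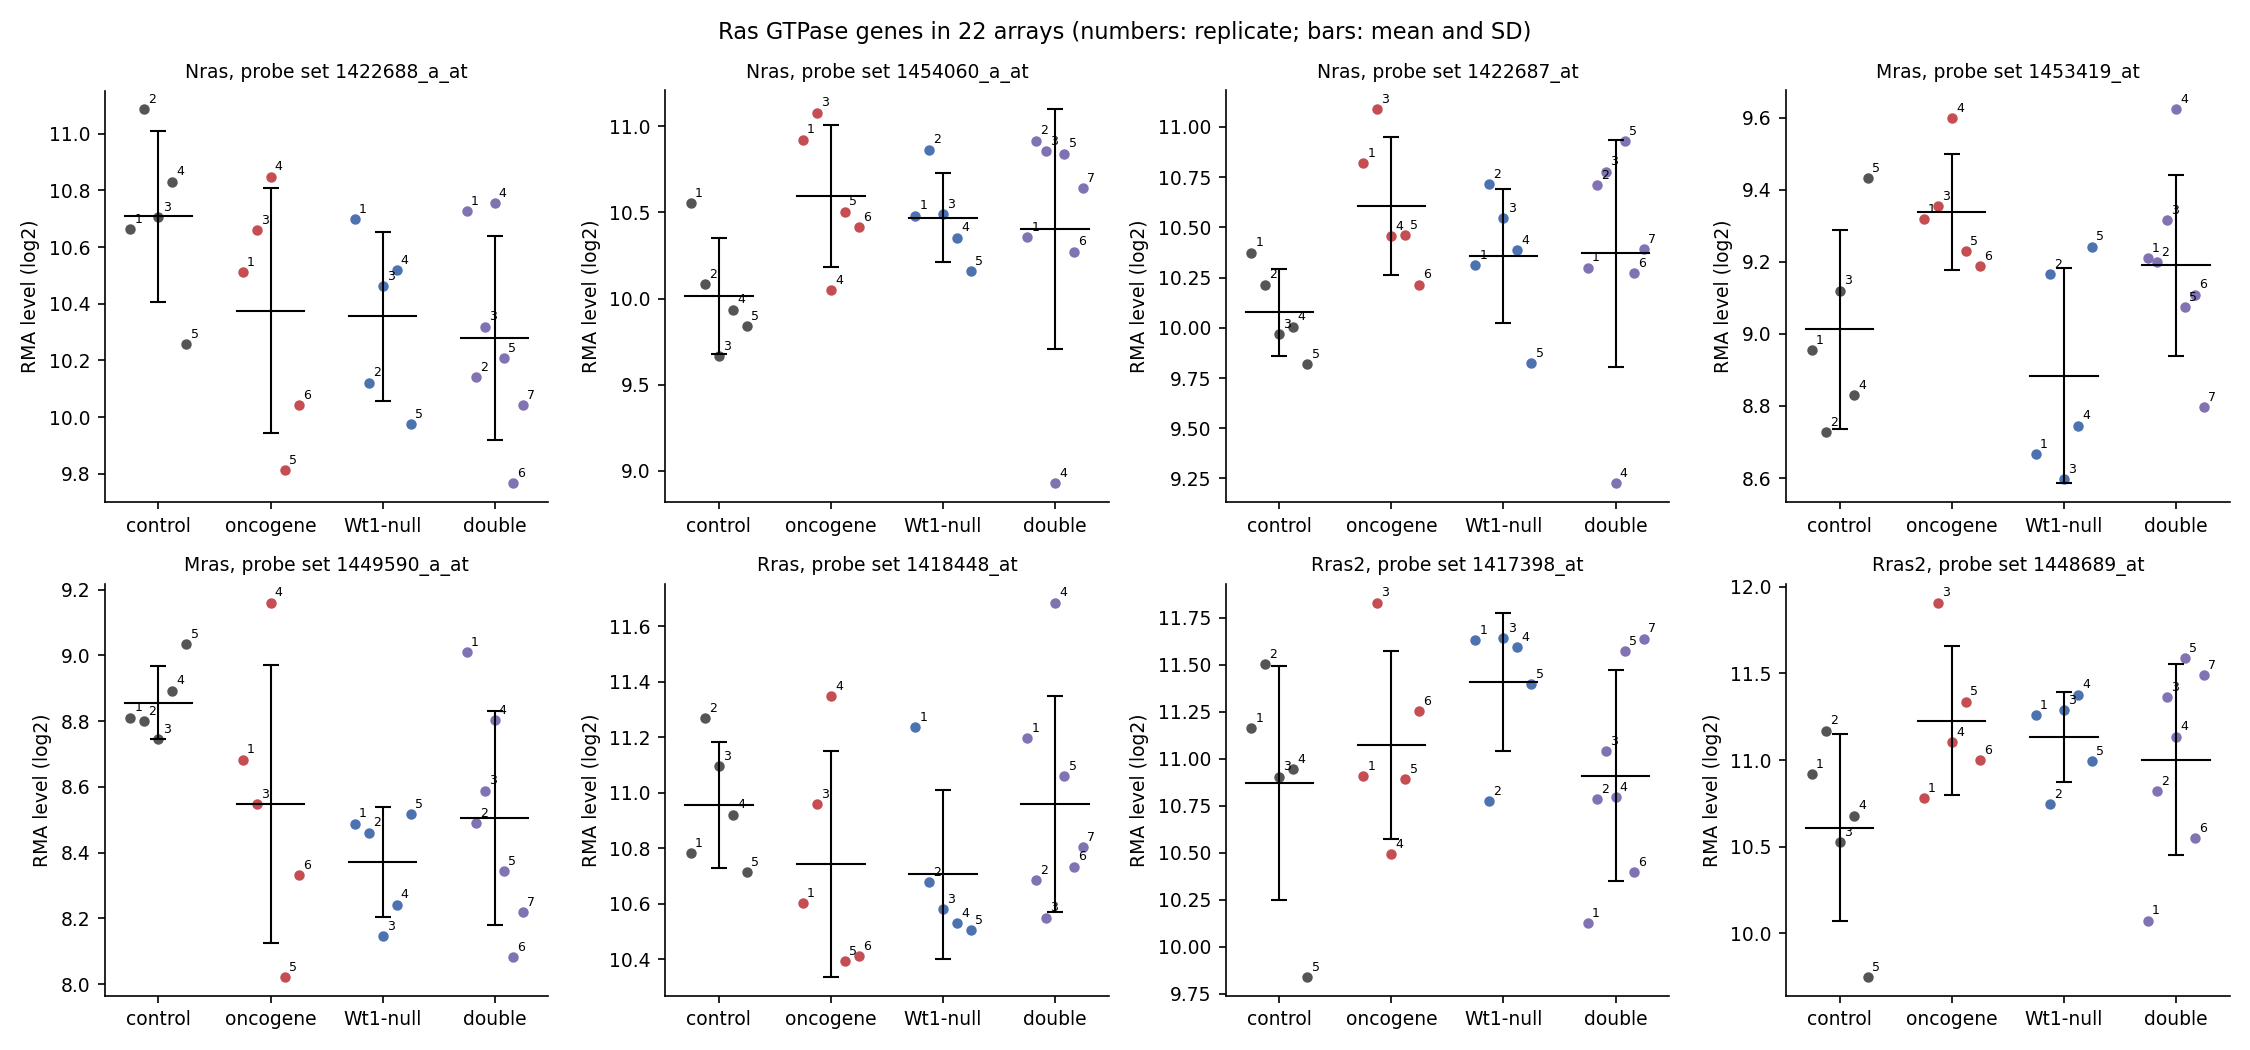
RMA level (log2) of the 8 probe sets of Nras, Mras, Rras and Rras2 in each array by group, with the replicate number beside each point and bars for the mean and SD. Groups overlap in every panel except Wt1-null and control in Mras 1449590_a_at, and double replicate 4 stands far below the other double arrays in Nras 1454060_a_at and 1422687_at.

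Nras, a classical Ras oncoprotein gene active in most cell types, had 3 probe sets that did not move together. The one with the highest mean, 1422688_a_at, read 10.66, 11.09, 10.71, 10.83 and 10.26 in control replicates 1 to 5. It read 10.51, 10.66, 10.85, 9.81 and 10.04 in oncogene replicates 1, 3, 4, 5 and 6. In Wt1-null replicates 1 to 5 it read 10.70, 10.12, 10.46, 10.52 and 9.98, and in double arrays 9.77 at the lowest, 10.21 at the median and 10.75 at the highest. The 3 Cre groups were lower on average but overlapped the control. Their differences from control were -0.33, -0.35 and -0.43 in oncogene, Wt1-null and double MEFs (adjusted p = 0.508, 0.527 and 0.234 with limma).

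The Nras probe sets 1454060_a_at and 1422687_at lay on the other side of the control. For 1454060_a_at the differences were 0.58, 0.45 and 0.39, and for 1422687_at 0.53, 0.28 and 0.29, in the same order of groups. These 2 probe sets had a Pearson correlation of 0.931 over the 22 arrays, and 1422688_a_at had -0.338 and -0.152 with them. So the direction for Nras depends on the probe set. Double replicate 4 read 8.93 and 9.23 in the pair, against 10.27 to 10.92 and 10.27 to 10.93 in the other double arrays. Without that array 1454060_a_at was higher in double than in control MEFs by 0.63 (adjusted p = 0.0479; 6.78% of all probe sets called), and 0.63 (adjusted p = 0.0279; 9.02% called) with oncogene replicate 4 also left out.

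Mras encodes a Ras relative that works with Shoc2 and protein phosphatase 1 to release RAF kinases from inhibition. Its brightest probe set, 1453419_at, read 8.96, 8.73, 9.12, 8.83 and 9.43 in control replicates 1 to 5 and 9.32, 9.36, 9.60, 9.23 and 9.19 in oncogene replicates 1, 3, 4, 5 and 6. It read 8.67, 9.17, 8.60, 8.75 and 9.24 in Wt1-null replicates 1 to 5, and 8.80, 9.20 and 9.62 at the lowest, median and highest in double arrays. Groups with the active oncogene were the higher ones, and all groups overlapped. Oncogene MEFs exceeded Wt1-null MEFs by 0.45 ± 0.16 (SE; 95% interval 0.13 to 0.78; unadjusted p = 0.00884, adjusted p = 0.439) and control MEFs by 0.33 (adjusted p = 0.344). The other probe set, 1449590_a_at, was lower in all 3 Cre groups, by -0.31, -0.49 and -0.35 in oncogene, Wt1-null and double MEFs (adjusted p = 0.451, 0.331 and 0.243). Its Wt1-null arrays, 8.14 to 8.52, all lay below the control arrays, 8.75 to 9.03, as was the case in either direction for 4.91% of all probe sets.

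Rras encodes R-Ras, a regulator of integrin adhesion, and had 1 probe set. It read 10.78, 11.27, 11.09, 10.92 and 10.71 in control replicates 1 to 5 and 10.60, 10.96, 11.35, 10.39 and 10.41 in oncogene replicates 1, 3, 4, 5 and 6. It read 11.24, 10.68, 10.58, 10.53 and 10.50 in Wt1-null replicates 1 to 5, and 10.55, 10.80 and 11.68 at the lowest, median and highest in double arrays. Values overlapped in all groups. The differences from control were -0.21, -0.25 and 0.00 in oncogene, Wt1-null and double MEFs (adjusted p = 0.696, 0.663 and 0.997).

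Rras2 encodes TC21, the R-Ras relative that couples to phosphoinositide 3-kinase. Its brightest probe set, 1417398_at, read 11.16, 11.51, 10.90, 10.94 and 9.84 in control replicates 1 to 5. It read 10.91, 11.83, 10.49, 10.89 and 11.25 in oncogene replicates 1, 3, 4, 5 and 6, and 11.63, 10.77, 11.64, 11.59 and 11.40 in Wt1-null replicates 1 to 5. The double arrays had a lowest value of 10.13, a median of 10.80 and a highest value of 11.64. Wt1-null arrays were high except replicate 2, and control replicate 5 was the lowest of all. Differences from control were 0.20, 0.54 and 0.04 in oncogene, Wt1-null and double MEFs (adjusted p = 0.825, 0.516 and 0.966). The second probe set, 1448689_at, gave 0.62, 0.52 and 0.39 (adjusted p = 0.315, 0.478 and 0.449). No difference was called. Without control replicate 5 the direction turned for 1417398_at in oncogene and double MEFs, to -0.06 and -0.22 (adjusted p = 0.96 and 0.733). The differences of 1448689_at were then 0.40, 0.31 and 0.18 (adjusted p = 0.536, 0.722 and 0.768).

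**Figure D4:**
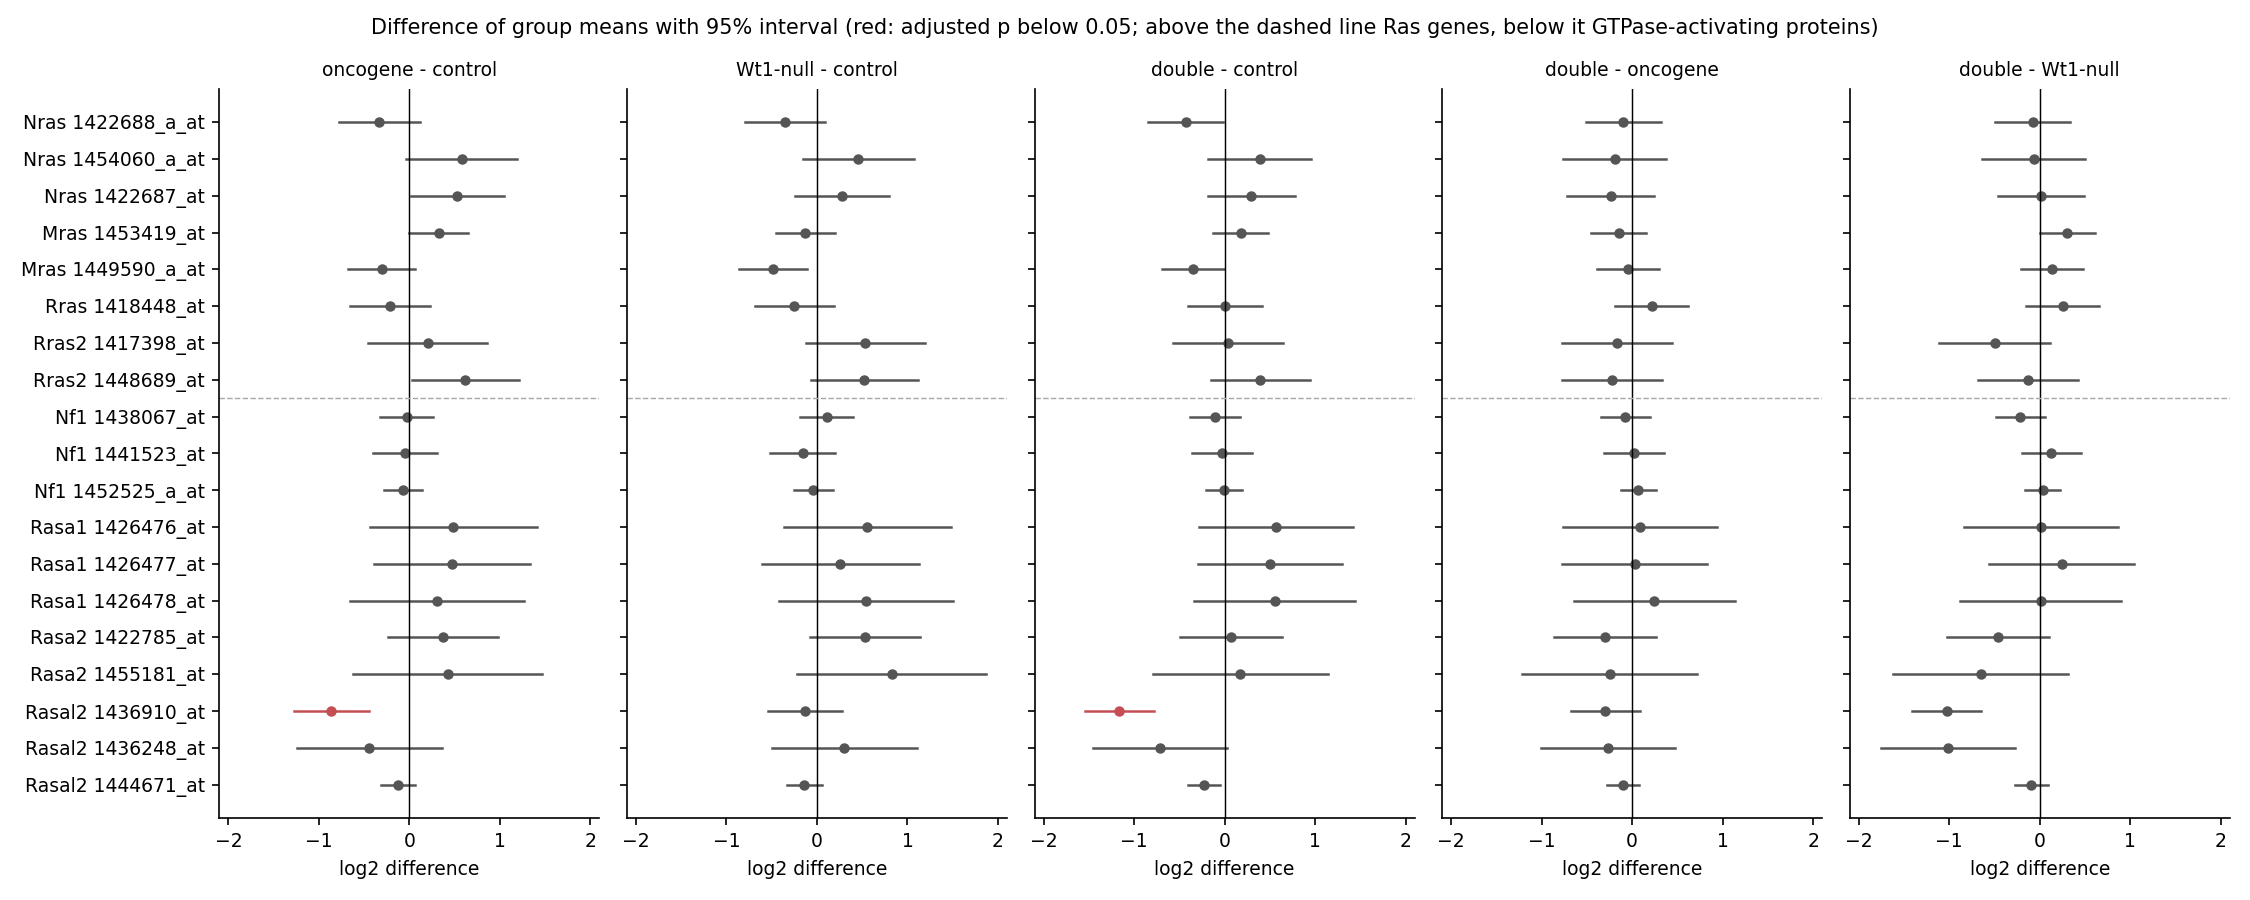
Log2 difference of group means with 95% interval for the 19 member probe sets in 5 comparisons, with Ras genes above the dashed line and GAP genes below it. Rasal2 1436910_at against control in oncogene and double MEFs is the only difference with an adjusted p below 0.05 (red).

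Among the GAP genes other than Rasal2, 0 of 8 probe sets were called in any comparison (limma). At an unadjusted p below 0.05 the only one was Rasa2 1422785_at in the interaction, where 7.6% of all probe sets had such a p. Over all 11 GAP probe sets, 5 were higher in oncogene than in control MEFs (median -0.029), 7 in Wt1-null (median 0.26) and 5 in double MEFs (median -0.006). The medians of all probe sets were -0.027, -0.028 and -0.025.

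Nf1 encodes neurofibromin, the tumour suppressor GAP whose loss causes neurofibromatosis in people. Its probe set 1438067_at read 7.98, 7.34, 7.54, 7.57 and 7.89 in control replicates 1 to 5. It read 7.76, 7.65, 7.63, 7.63 and 7.50 in oncogene replicates 1, 3, 4, 5 and 6, and 7.94, 7.83, 7.75, 7.77 and 7.56 in Wt1-null replicates 1 to 5. In double arrays it was 7.11 at the lowest, 7.58 at the median and 7.90 at the highest. All groups overlapped, and the oncogene arrays had the narrowest spread. The difference between oncogene and control MEFs was -0.03 (95% interval -0.32 to 0.26; adjusted p = 0.955). The other Nf1 probe sets, 1441523_at and 1452525_a_at, read 5.29 to 6.38 and 4.75 to 5.39 over all arrays. The first lay above the background range in every array, and the second straddled its top.

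Rasa1 encodes p120 RasGAP, which binds activated growth factor receptors through its SH2 domains. Its probe set 1426476_at read 11.16, 10.65, 10.45, 10.45 and 10.41 in control replicates 1 to 5. It read 11.41, 11.57, 10.31, 11.33 and 10.93 in oncogene replicates 1, 3, 4, 5 and 6, and 11.13, 11.76, 11.32, 11.27 and 10.45 in Wt1-null replicates 1 to 5. The double arrays spanned 9.63 to 12.56 with a median of 11.63, wider than any other group. The mean was higher in all 3 Cre groups, by 0.48, 0.56 and 0.57 in oncogene, Wt1-null and double MEFs, with no call (adjusted p = 0.666, 0.639 and 0.486). The 3 probe sets of Rasa1 followed each other over the 22 arrays (Pearson correlations 0.931 to 0.958), and their spread within groups, 0.69 to 0.77, was above the median of 0.252 for all probe sets. Double replicates 1 and 4 and oncogene replicate 4 were low in all 3. With both replicate 4 arrays left out the double against control difference was 0.79 (95% interval -0.004 to 1.58; adjusted p = 0.198).

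Rasa2 encodes GAP1m, a Ras GAP with lipid-binding domains. Its brightest probe set, 1422785_at, read 9.82, 9.60, 9.32, 9.44 and 9.19 in control replicates 1 to 5 and 9.74, 9.64, 9.65, 10.13 and 10.07 in oncogene replicates 1, 3, 4, 5 and 6. It read 9.60, 9.65, 10.50, 10.45 and 9.82 in Wt1-null replicates 1 to 5, and 8.17, 9.84 and 10.10 at the lowest, median and highest in double arrays. The lowest double array was replicate 4, and the highest Wt1-null values were those of the near-identical replicates 3 and 4. The differences from control were 0.37, 0.53 and 0.07 in oncogene, Wt1-null and double MEFs (adjusted p = 0.603, 0.485 and 0.924). The interaction (double minus Wt1-null, less oncogene minus control) was -0.83 (95% interval -1.66 to -0.002), with an unadjusted p = 0.0495 and an adjusted p = 0.645. The second probe set, 1455181_at, gave -1.08 for the same contrast (adjusted p = 0.679), and its differences from control were 0.42, 0.83 and 0.18. Without double replicate 4 the double against control difference was 0.30 in 1422785_at and 0.59 in 1455181_at (adjusted p = 0.385 and 0.285 with limma). The interaction was then -0.60 and -0.66 (adjusted p = 0.667 and 0.727).

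**Figure D5:**
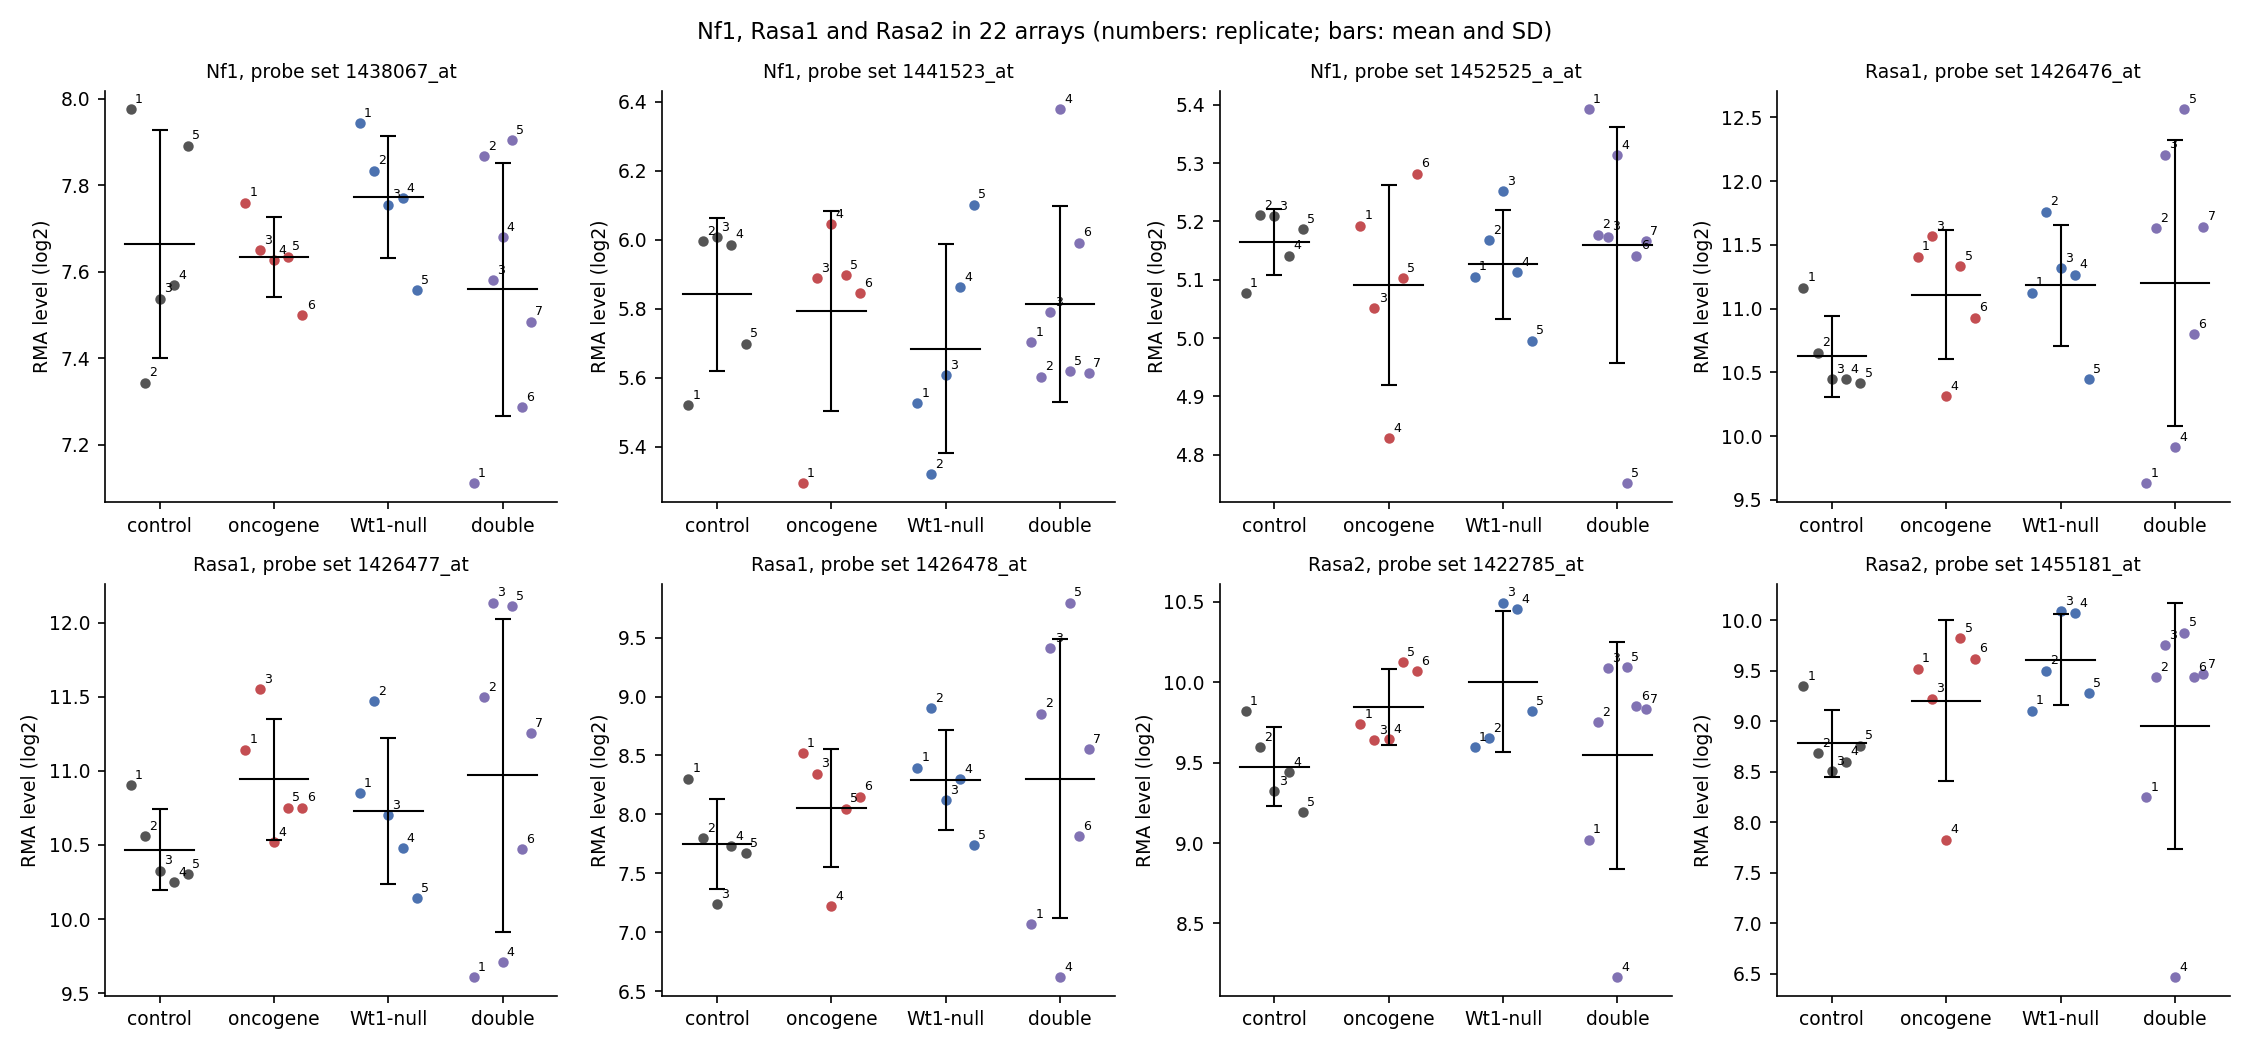
RMA level (log2) of the 8 probe sets of Nf1, Rasa1 and Rasa2 in each array by group, with the replicate number beside each point and bars for the mean and SD. Rasa1 and Rasa2 are low in double replicates 1 and 4 in each of their panels, and groups overlap throughout.

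The genes with the pattern most like a member were looked up for the 3 member genes whose brightest probe set had the smallest p of the F test, by Pearson correlation over the 22 arrays among 16324 genes with 1 probe set each. Like Rasal2 were Ccn4 (0.918), a secreted matrix protein of the Wnt pathway, the keratin gene Krt7 (0.904) and Ammecr1 (0.900). With group means removed these correlations were lower, at 0.747, 0.705 and 0.637, so part of the likeness is the shared difference between groups. Ccn4 averaged 11.36 in control and 11.15 in Wt1-null MEFs, and 10.06 in oncogene and 9.88 in double MEFs. Like Mras 1453419_at were Arhgap28 (0.909), Zfp467 (0.888) and Tmem176b (0.880). Like Nras 1422688_a_at were Tead4 (0.926), Mrps7 (0.921) and Mecr (0.919). The points share the same arrays and groups, and the correlations are descriptions.

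Other genes of the Ras switch were taken from 7 lists, with the brightest probe set of each gene. Over the brightest probe sets of all 18193 genes, 1.73% were called in oncogene and 5.55% in double against control MEFs, and 2.63% in the F test. Of 8 exchange factors 1 was called: Sos2, which loads Ras with GTP at activated receptors, was higher in double than in control MEFs by 1.15 ± 0.28 (SE; adjusted p = 0.0218 with limma). Its mean was 7.60 in control and 8.75 in double arrays, with 8.60 in oncogene and 8.48 in Wt1-null arrays, and double and control arrays overlapped. Of 27 other small GTPases of the Ras subfamily 1 was called higher and 1 lower in oncogene against control MEFs. In double against control MEFs 2 were called lower. Rasl12 was lower by -0.68 and -0.78 (adjusted p = 0.00596 and 0.000504). Ralb, a GTPase of the Ral branch of Ras signalling, was lower by -0.68 in double MEFs (adjusted p = 0.0209), and its other probe set by -0.65 (adjusted p = 0.00682). Rerg was higher by 0.74 in oncogene MEFs (adjusted p = 0.0441) from a control mean of 4.59, within the background range. The median over the 27 genes was -0.095 in oncogene and 0.00 in double MEFs, and that over all genes -0.030 and -0.022.

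Among 16 Ras effectors, 10 were above control in oncogene and 10 in double MEFs, and Afdn was the only one called in either comparison. Afdn encodes afadin, a junction protein with Ras-binding domains. It rose by 0.89 ± 0.14 (SE; adjusted p = 0.00374) in oncogene and by 0.70 ± 0.13 (SE; adjusted p = 0.00436) in double MEFs, and a dimmer probe set gave -0.03 and 0.03. Pik3cb, a catalytic subunit of phosphoinositide 3-kinase, passed the F test over the 4 groups (adjusted p = 0.0449), with its highest mean in Wt1-null arrays (7.18) and its lowest in double arrays (6.04). The remaining lists had 0 calls in every comparison (limma). They were 5 measured of 6 other Ras GAP genes, 8 of 10 genes of the Shoc2 complex and ERK cascade, 7 of 8 adaptor genes and all 15 genes of the lipid modification and traffic of Ras. Their smallest adjusted p-values in double against control MEFs were 0.184, 0.177, 0.216 and 0.141.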

How the data were processed

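The authors' deposited values are log2 expression levels of 45101 probe sets, made with RMA in Affymetrix Expression Console, per the submitters' processing notes; RMA corrects background, equalises the distributions of the arrays and summarises the probes of a set. Such values compress differences of dim probe sets. The 34945 probe sets with exactly 1 gene in the platform annotation were used; 64 control probe sets, 932 with several genes and 9160 with none were left out.

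Group means of 22 arrays were fitted with limma 3.58.1 in R 4.3.3 (lmFit, eBayes) without covariates, and p-values were adjusted by Benjamini-Hochberg over the 34945 probe sets. All adjusted p-values are from limma, and a probe set was called at an adjusted p below 0.05. On simulated data 70% to 74% of 50 probe sets changed by 1 on the log2 scale were recovered, with 3 to 9 false calls per comparison. These 50 were planted together with probe sets changed by less and by more, and the false calls are for that mix. The number of changed probe sets was fixed, so recovery may be lower in comparisons with fewer changes. The simulated arrays were drawn independently, with no near-identical or outlying arrays, so recovery in the real arrays may differ. Replicate numbers come from the titles. Deviations from group means correlated above 0.1 in 12 of 28 same-number pairs from different groups (median 0.048, highest 0.787). They did so in 53 of 152 pairs with different numbers (median -0.008, highest 0.685). The array closest to double replicates 3, 4 and 6 was the oncogene array of the same number. Arrays were not paired in the reported fit, and whether same-number arrays shared a culture was not tested. The design text names 6 oncogene samples and 5 were used.

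Values are printed per array for the probe set with the highest mean of each member gene, and pathway genes are named where called. The members and lists were chosen with earlier results of these data known. Alternatives covered normalization, probe set choice, variance model, covariates, blocks and leaving out arrays. Arrays give no counts, so their number limits the precision.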

Additional observations from a re-analysis of the deposited data

Results flagged for a closer look

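In 6 of 76 groups of arrays tested, 4 per member probe set, 1 array stood apart from the rest of its group; chance flags about 1 in 20 such groups. Double replicate 4, one of the arrays least correlated with the others, gave 2 of them: Nras 1454060_a_at read 8.93 there against 10.27 to 10.92 in the other double arrays, and Nras 1422687_at read 9.23 against 10.27 to 10.93. Rras read 11.24 in Wt1-null replicate 1 and 10.50 to 10.68 in the other Wt1-null arrays. Rras2 1417398_at read 10.77 in Wt1-null replicate 2, the array nearly identical to double replicate 2, against 11.40 to 11.64. The dim Nf1 probe sets gave the others: 1441523_at read 5.29 in oncogene replicate 1 against 5.84 to 6.04, and 1452525_a_at read 4.75 in double replicate 5 against 5.14 to 5.39. No cause was tested. The interaction was called for 0 of 19 member probe sets with limma, with 1 at an unadjusted p below 0.05.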

How the results depend on the processing

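Rasal2 1436910_at stayed lower in double than in control MEFs, with a call, in all 40 alternatives that gave a value (-1.32 to -0.70); oncogene against control was called in 29 of 40. Leaving out 1 array moved the called GAP probe sets between 0 and 1 in oncogene against control, double against Wt1-null and oncogene against Wt1-null, and the called Ras probe sets between 0 and 1 in double against control. Array weights raised the GAP counts to 7 (F test), 5 (double against control), 2 (double against Wt1-null) and 2 (interaction). They also gave 2 (oncogene against control), 1 (oncogene against Wt1-null) and 4 (Wt1-null against control). The Ras counts were 6, 4, 0, 1, 4, 1 and 5 in the same order. Of all probe sets, 38%, 29%, 16.1%, 7.75%, 17.7%, 4.09% and 27% were then called, again in that order. In the F test the count over all probe sets rose from 839 to 13281, and the cause was not tested. The GAP count in oncogene against control was 0 with averaged probe sets, with a log2 difference of at least 1, with the replicate block (Rasal2 -0.83, adjusted p = 0.0824) and within accession set 3. In double against Wt1-null it was 1 with 1 probe set per gene, with repeated quantile normalization and without both near-identical arrays, which also gave 1 in oncogene against Wt1-null. The Ras count was 1 in double against control without both arrays of lowest correlation (9.02% of all probe sets called). It was also 1 in Wt1-null against control when only those groups were fitted (1.68% called, against 0.0601% in the reported fit). Over all probe sets, leaving out 1 array gave 156 to 1011 calls in oncogene against control (528 reported), 883 to 2932 in double against control (1811), 0 to 1681 in double against Wt1-null (2), 2 to 320 in oncogene against Wt1-null (4), 4 to 111 in Wt1-null against control (21) and 0 in double against oncogene. Of 133 member differences 68 kept their sign in every one of the 41 alternatives that gave a value, and 0 called ones reversed. Probe sets near background limit what Nf1 1452525_a_at and Rasal2 1444671_at can show.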
